A study of Saccharomyces cerevisiae with 32 samples.

Results

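The response of TAF1 occupancy to heat shock was measured in the budding yeast Saccharomyces cerevisiae on 4 of the 32 arrays of the series, those titled TAF1 that carried immunoprecipitated DNA, and was set against 4 arrays of a strain labelled Null. In the TAF1 group, cells with HA-tagged TAF1, a haemagglutinin epitope on the protein, were heat shocked at 37 °C for 15 min and compared with mock treated cells of the same strain kept at 25 °C. In the Null group, cells labelled only as Null went through the same heat shock and the same mock treatment. The cultures were grown in the rich medium YPD at 25 °C to an OD600 near 0.8, the treatment was made with an equal volume of heated or unheated medium, and all cells were then returned to 25 °C while being fixed with 1% formaldehyde for 2 h. A set of 4 RNA arrays of the Null strain, named there as BY4741, was used for comparison, 2 comparing heat shock with mock treatment and 2 comparing mock treated samples with each other. Each array carried the heat shocked and the mock treated DNA in different channels, with arrays A and C of both groups in 1 channel order and B and D in the other. Of the 7047 regions on the arrays, 6392 were tested. The HA tag and the strains cannot be checked against markers on such arrays, since each holds only ratios within a strain, and the labels do not say whether the arrays came from separate cultures, so the p-values measure the spread between arrays.

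TAF1 is a scaffold subunit of TFIID, the general transcription factor that recognises core promoters and delivers TBP, the TATA-binding protein, to them. In yeast, TFIID is known to act with the coactivator complex SAGA, and promoters are often described by which of the complexes they lean on: housekeeping genes, ribosomal protein genes among them, more on TFIID, and stress-induced genes, many with a TATA box, more on SAGA. Heat shock in yeast is known for a rapid loss of ribosome synthesis and a rise of chaperones, protein degradation and carbohydrate protection, driven by the activators Hsf1, Msn2 and Msn4.

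A value below is a log2 ratio of heat shocked over mock treated DNA at a region, relative to the array's median, so that a change common to all regions cannot be seen. The submitters do not state which channel was the numerator. The ratios were read as channel 1 over channel 2, the likely direction only: the TAF1 change then ran with the RNA change of the gene (Spearman rho 0.40 over 2633 regions that border 1 promoter). The RNA ratios were read the opposite way, as channel 2 over channel 1, the reading under which heat shock genes such as HSP26 and SSA4 rise and ribosomal protein genes fall. That too was taken from the values and from no label, so every RNA sign below rests on it, and with both kinds of array read alike the TAF1 change would run against the RNA change. The ChIP reading was settled with the values in view, so the sign of the relation to RNA below is no independent result. Under the other ChIP reading every TAF1 and Null sign reverses and counts of higher and lower regions swap. That the deposited ratios had not already been turned by condition is an assumption too, and the 4 TAF1 arrays averaged without turning gave a rho of -0.13.

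The arrays differed in spread. The median absolute deviation of the turned log2 ratios, with a fitted channel effect taken off, was 0.40, 0.39, 0.26 and 0.25 on TAF1 arrays A to D and 0.47, 0.35, 0.14 and 0.14 on Null arrays A to D. Before centring, the medians lay at 0.60, 1.00, 0.20 and 0.36 for TAF1 and at -0.70, 1.77, -0.27 and 0.88 for Null. Without the channel effect, TAF1 arrays of opposite channel order correlated below 0, at -0.26 to -0.01 over all regions. With it taken off they correlated at 0.12 to 0.34, and Null arrays of opposite order at -0.05 to 0.12. The values of single arrays given below have this channel effect taken off.

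TAF1 changed at 1336 of the 6392 tested regions, more often upward, and mostly by less than 2-fold. Against 0, TAF1 was higher after heat shock at 782 regions (12.2% of 6392) and lower at 554 (8.67%), by limma's moderated test over the 28 intergenic arrays at a Benjamini-Hochberg adjusted p under 0.05. The median called change was 0.45 upward and -0.38 downward on the log2 scale, with a median SE of 0.12. Each SE here and below comes from the spread that the model shares over the 28 arrays. It is not the spread of the 4 TAF1 arrays alone, and 4 of the 28 are input arrays that compare 2 strains and not heat with mock. Changes of at least 2-fold were few, 23 upward and 10 downward. The Null strain gave 1 higher and 1 lower region at the same threshold (0.0313%), although 1270 regions had an unadjusted p under 0.05. In the direct test of TAF1 minus Null, 474 regions were higher (7.42%) and 260 were lower (4.07%). Of the regions called against 0, 379 of 782 higher ones (48.5%) and 205 of 554 lower ones (37%) were called against Null as well.

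The sign was shared by the 4 TAF1 arrays at 758 of 779 regions called higher and at 510 of 553 called lower that had all 4 values. The size was not: the median over the higher regions was 0.63, 0.51, 0.37 and 0.30 on TAF1 arrays A to D, and over the lower regions -0.46, -0.51, -0.28 and -0.28. Null arrays A to D had medians between -0.03 and 0.03 over both sets. All 4 TAF1 values lay above all 4 Null values at 383 of 763 higher regions, and all below at 232 of 535 lower ones. Over all 6108 regions with 8 values these shares were 8.78% and 6.79%. The regions were called from these same TAF1 values, so the call itself favours a shared sign and a gap from Null. Neither is separate support for the calls.

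The calls rest on the spread shared by the 28 arrays, although the arrays differ in spread, and may be too many at this threshold. On data simulated with noise scaled to each array's own spread, the share of false calls was well above 0.05 for TAF1 and above 0.05 for TAF1 minus Null. Weighting the arrays by their spread brought it down to about that level. The simulation gave all regions of an array the same spread, so it cannot give the share of false calls in the measured data. Such array weights did not lower the counts on the measured data. With them 1480 regions were called for TAF1, with 1147 of the 1336 among them, and 779 for TAF1 minus Null, with 512 of the 734 among them. Of the regions described below, RRP5-RPS10B, URA7-MRPL16, SCS22 and YPL247C then lost the call against 0 (adjusted p by limma 0.0523 to 0.188), and YLR345W, DUS3-SFP1, SSF2, BDF1, RRP5-RPS10B, TRX2 and ATG9 the call against Null (0.0538 to 0.152). When the TAF1 and Null arrays were fitted alone, no region passed (the smallest adjusted p by limma was 0.0537 for TAF1 and 0.2 for TAF1 minus Null). In that smaller fit 1558 of 6580 regions had an unadjusted p under 0.05 for TAF1, among them 1163 of the 1336 called above, and all 1336 kept their sign. Without centring on the array medians, 0 regions were called for TAF1 (204 at an unadjusted p under 0.05 by limma), and 21 higher and 0 lower for TAF1 minus Null. Leaving out TAF1 array A lowered the counts to 384 higher and 241 lower, and to 213 and 135 for TAF1 minus Null. Leaving out array B gave 523 and 293, and 277 and 126 for TAF1 minus Null.

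Promoters bordered 690 of the 782 regions at which TAF1 was higher and 325 of the 554 at which it was lower, beside 4041 of all 6392 tested regions. The position of a region was read from the gene that names it, taking the region to lie on that gene's right, and the promoters it borders were read from the strands of the neighbouring genes. Among 1315 regions between divergent genes, with a promoter on both sides, TAF1 was higher at 21.7% and lower at 8.14%. Among 2726 regions with 1 promoter it was higher at 14.9% and lower at 8%. Among 1268 regions between convergent genes, which hold no promoter, it was higher at 2.13% and lower at 10.9%. The lowering between convergent genes was seen on every TAF1 array, with medians of -0.15, -0.08, -0.12 and -0.13 on A to D, against -0.05, 0.01, 0.01 and -0.05 on Null arrays A to D. Since each array was centred on its own median, a fall at convergent regions and a rise at promoters cannot be told apart in this measure.

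**Figure D1:**
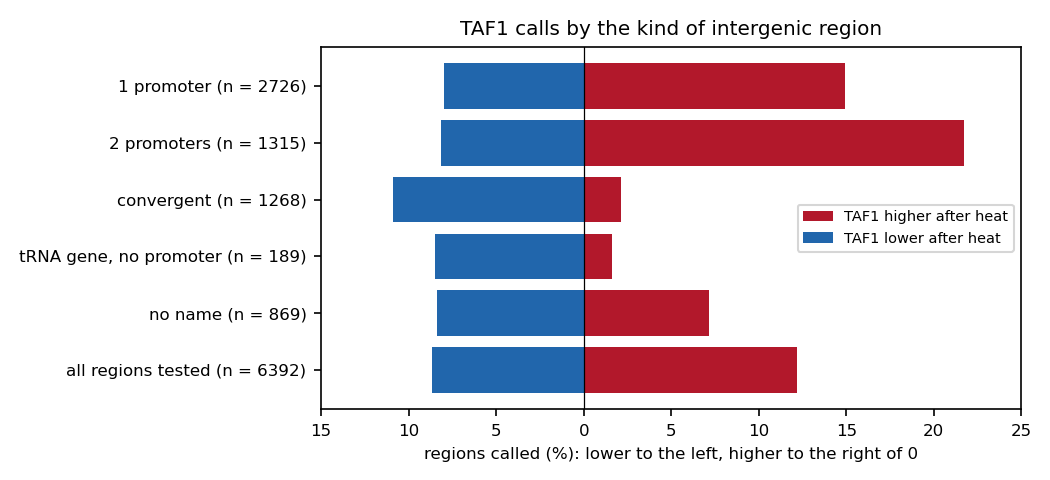
Percentage of tested regions at which TAF1 was called higher (red, right of 0) or lower (blue, left of 0) after heat shock, by the kind of intergenic region, with the number of regions of each kind. Higher calls reach 21.7% of regions with 2 promoters and 2.13% of convergent regions, while lower calls stay between 8% and 10.9% in all kinds shown. Calls are against 0 and not against Null.

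At 189 regions that border a tRNA gene and no promoter of a coding gene, TAF1 was higher at 1.59% and lower at 8.47%, and against Null higher at 1 region and lower at 6. Among the regions within the 5 outermost genes of a chromosome end, a zone known for silenced and seldom transcribed genes, TAF1 was higher at 2.7% and lower at 13.5%, with a median of -0.19 (Null 0.02). The 173 stretches covered by 2 named regions each gave estimates that correlated at r = 0.26 between the pair, as a description; the pairs share arrays and chromatin.

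The 12 highest TAF1 estimates among regions that passed against 0 and against Null, with values on all 8 arrays and 1 sign on the TAF1 arrays, ran from 1.00 to 1.24, about 2-fold. SSE2, which encodes an Hsp110 partner of the Hsp70 chaperones, had 1.71, 1.70, 0.91 and 0.65 on TAF1 arrays A to D, against -0.45, 0.17, -0.22 and -0.35 on Null arrays A to D, and its RNA rose by 3.002. RNY1, the vacuolar ribonuclease that cleaves RNA in stressed cells, had 2.16, 1.61, 0.54 and 0.49 on TAF1 arrays and 0.24, 0.32, -0.26 and -0.26 on Null arrays. FMP45, a membrane protein of the cell cortex, had 2.26, 0.92, 0.56 and 0.45 on TAF1 arrays and -1.23, 0.28, -0.32 and 0.02 on Null arrays. In all of these the TAF1 values of arrays A and B were the larger and no TAF1 value reached down to a Null value. The fitted changes were 1.24 ± 0.19 for SSE2 (SE of the model; adjusted p by limma = 0.000103), 1.20 ± 0.18 for RNY1 (adjusted p by limma = 0.000103) and 1.05 ± 0.24 for FMP45 (adjusted p by limma = 0.00298). The standard deviation of the 4 TAF1 values themselves was 0.54 for SSE2, 0.82 for RNY1 and 0.84 for FMP45. Without TAF1 array A, FMP45 fell short of the threshold, at 0.62 (adjusted p by limma = 0.0697).

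The other regions of this set were the promoters of ALD3 (an aldehyde dehydrogenase), ARA1 (a sugar dehydrogenase), FBP26 (fructose-2,6-bisphosphatase), MPM1 (a mitochondrial membrane protein), BLS1 (a subunit of the BLOC-1 complex of endosomes), ROY1 (an F-box-like protein) and the uncharacterised YLR345W, and 2 shared promoters. LDS1-PSK1 lies between LDS1 and the PAS kinase gene PSK1, and IRC24-HYR1 between IRC24 and the peroxide sensor HYR1. MPM1 had 1.64, 0.98, 0.90 and 0.67 on TAF1 arrays A to D, against 0.04, 0.19, 0.15 and -0.11 on Null arrays. FBP26 reached 1.02, 1.62, 0.80 and 0.66 on TAF1 arrays and 0.23, 0.15, 0.07 and -0.04 on Null arrays, and had the smallest adjusted p of the 12 (1.02 ± 0.11 SE, adjusted p by limma = 5.54e-06). The TAF1 and Null values did not overlap at 11 of the 12, BLS1 being the exception, where Null array B stood at 0.93. The 12 were chosen among regions that passed against Null, which favours such a gap. Over all regions with 8 values, all TAF1 values lay above all Null values at 8.78%. Both values of TAF1 arrays A and B exceeded both of C and D at 11 of the 12. Without TAF1 array A, YLR345W no longer passed against 0 (0.96, adjusted p by limma = 0.0688). Against Null, leaving out 1 array ended the call for at least 1 choice of array at YLR345W, ROY1, BLS1, FMP45, ALD3 and ARA1 (adjusted p by limma 0.0549 to 0.108).

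The 12 lowest estimates, from -1.28 to -0.93, were mostly promoters of genes that build ribosomes. NOG2, a GTPase needed to mature the large ribosomal subunit, had -1.21, -2.24, -0.88 and -0.80 on TAF1 arrays A to D, against -0.16, -0.08, 0.12 and 0.36 on Null arrays A to D. NSA2-LCP5, shared by genes that act in large and small subunit assembly, had -1.49, -1.83, -0.76 and -0.88 on TAF1 arrays and 0.53, 0.21, 0.21 and 0.16 on Null arrays. UTP9, a subunit of the small subunit processome, had -1.40, -1.38, -0.45 and -0.52 on TAF1 arrays and 0.25, -0.10, 0.01 and -0.10 on Null arrays. The TAF1 values were all below the Null values at these 3 regions. The fits gave -1.28 ± 0.21 for NOG2 (adjusted p by limma = 0.000229), -1.24 ± 0.17 for NSA2-LCP5 (adjusted p by limma = 3.44e-05) and -0.94 ± 0.12 for UTP9 (adjusted p by limma = 2.13e-05).

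The remaining 9 were the promoters of UTP18 (small subunit processome), RPF1, MAK16 and SDA1 (large subunit assembly), KRE33 (an RNA acetyltransferase of small subunit assembly) and RFU1 (a regulator of ubiquitin recycling), and 3 shared promoters. These were GCD10-NOP2, beside a tRNA and an rRNA methyltransferase gene, PUS1-NIP7, beside a pseudouridine synthase gene and the large subunit assembly gene NIP7, and DUS3-SFP1. DUS3 encodes a tRNA dihydrouridine synthase and SFP1 an activator of ribosome genes. DUS3-SFP1 had -0.94, -2.58, -0.42 and -0.30 on TAF1 arrays A to D and 0.26, 0.65, -0.16 and 0.19 on Null arrays. Its neighbours differed in RNA: DUS3 fell by 1.76 and SFP1 stood at 0.15 (adjusted p by limma = 0.491). The TAF1 and Null values did not overlap at 10 of the 12, and both values of TAF1 arrays A and B were further from 0 than those of C and D at all 12. The choice among regions that passed against Null favours such a gap here too. All TAF1 values lay below all Null values at 6.79% of all regions with 8 values. RFU1 overlapped through Null array A at -1.24 and UTP18 through Null array A at -0.88. At PUS1-NIP7 Null array A stood at 3.71 and the other Null arrays between -0.02 and 0.28, and its difference from Null was -2.05 with that array and -1.10 without it. Leaving out any TAF1 array ended its call against 0 (adjusted p by limma 0.0611 to 0.172). Without TAF1 array B the estimate of DUS3-SFP1 was -0.53 (adjusted p by limma = 0.0128). Against Null, leaving out 1 array ended the call for at least 1 choice of array at UTP18, RFU1 and MAK16 (adjusted p by limma 0.052 to 0.113), and without Null array B the difference at RFU1 was -0.67.

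**Figure D2:**
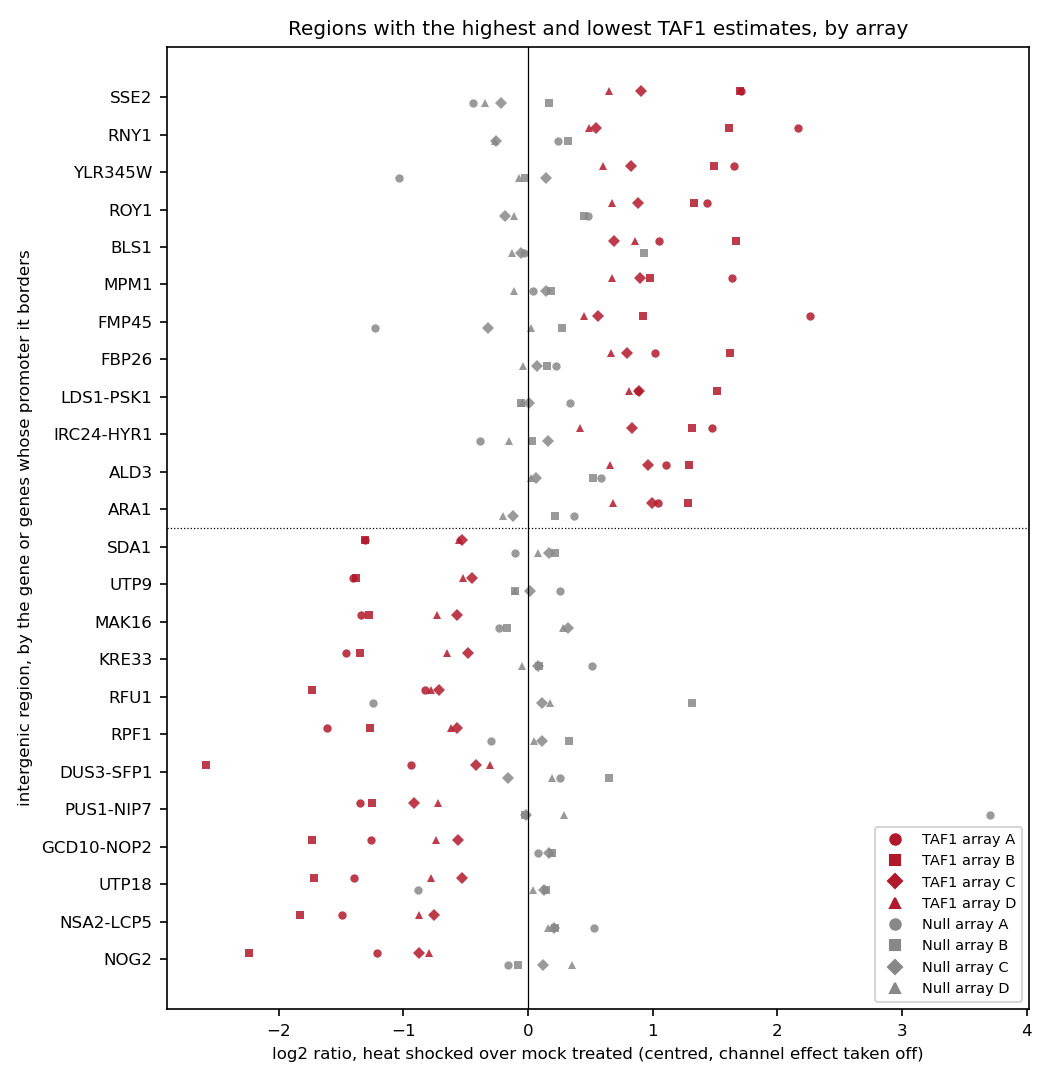
Log2 ratio of heat shocked over mock treated DNA on each TAF1 array (red) and each Null array (grey) at the 12 regions with the highest and the 12 with the lowest TAF1 estimates that passed against 0 and against Null. Circles are array A, squares B, diamonds C and triangles D. TAF1 values of arrays A and B lie farther from 0 than those of C and D at 11 of the 12 highest and all 12 lowest regions, and a Null value reaches 3.71 at PUS1-NIP7.

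Gene lists are described by counts of promoter regions, to be read beside all 4041 tested promoter regions, of which TAF1 was higher at 17.1% and lower at 8.04% against 0, and higher at 10.3% and lower at 4.45% against Null. Counts are against 0 unless Null is named. The lists and members were chosen with earlier results of these data known. The 33 lists hold 1177 gene names, of which 1168 were matched and 1049 had a tested promoter region, and a region between divergent genes counts for the lists of both genes.

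Ribosome assembly lists had the largest shares of lowered regions among the 33 lists. In the list of the small subunit processome, the particle that processes the small subunit's rRNA, TAF1 was lower at 33 of 52 regions (63.5%) and higher at 0, with a median of -0.40. In the 60S assembly list it was lower at 40 of 62 (64.5%) and higher at 1, with a median of -0.50. Against Null it was lower at 25 (48.1%) and 31 (50%) of these regions. Over both lists together, 113 regions, the medians were -0.43, -0.67, -0.32 and -0.30 on TAF1 arrays A to D, against 0.10, -0.06, 0.02 and 0.08 on Null arrays A to D. TAF1 values were below 0 at 94, 104, 96 and 99 of the 113 regions on arrays A to D. The RNA of these genes fell at 51 of 55 and 70 of 70 measured genes (18.9% of all RNA probes fell and 18.2% rose).

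SSF2 and KRR1 had positive estimates. SSF2, a 60S assembly factor with a near-identical paralogue that may share its RNA probe, was the region called higher, with 0.53, 0.29, 0.20 and 0.31 on TAF1 arrays A to D and -0.03, -0.13, 0.01 and -0.00 on Null arrays (0.33 ± 0.08 SE, adjusted p by limma = 0.00628), while its RNA fell by 1.36. Without TAF1 array A its adjusted p by limma was 0.0781. KRR1, needed for the small subunit, had one of the steepest RNA losses of its list, -3.41, and TAF1 values of -0.02, 0.61, 0.21 and -0.18, against -1.90, 0.07, -0.15 and -0.11 on Null arrays (0.15 ± 0.22 SE, adjusted p by limma = 0.679). TAF1 arrays gave both signs there.

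RNA polymerases I and III make the rRNA, tRNA and other small RNAs. TAF1 was lower at 14 of 35 promoter regions of their subunits and factors (40%) and higher at 5 (14.3%), and against Null lower at 9 (25.7%) and higher at 2. RPA43-RPA190, shared by a small and the largest subunit of polymerase I, had -1.36, -0.91, -0.52 and -0.64 on TAF1 arrays A to D, against 0.86, 0.12, 0.22 and 0.05 on Null arrays (-0.86 ± 0.13 SE, adjusted p by limma = 7.28e-05). RPA43 RNA fell by 2.52 and RPA190 RNA fell by 2.78. DBP7-RPC37, beside a ribosome assembly helicase gene and a polymerase III subunit gene, had -0.96, -0.50, -0.55 and -0.41 on TAF1 arrays and 1.02, -0.07, 0.09 and 0.34 on Null arrays (-0.60 ± 0.14 SE, adjusted p by limma = 0.00288).

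The 3 highest regions of that list bordered genes of TFIIIC, the DNA-binding factor of polymerase III. TFC8-NCR1 had 0.93, 0.71, 0.78 and 0.25 on TAF1 arrays A to D, against -1.43, -0.53, -0.07 and -0.46 on Null arrays (0.67 ± 0.15 SE, adjusted p by limma = 0.00369). TFC4-UFD1 had 1.03, 0.58, 0.31 and 0.50 on TAF1 arrays and 0.05, 0.06, 0.05 and 0.11 on Null arrays (0.60 ± 0.10 SE, adjusted p by limma = 0.000138). TFC3-NUP60 had 0.42, 0.90, 0.16 and 0.33 on TAF1 arrays and 0.70, -0.66, 0.17 and 0.05 on Null arrays, with overlap (0.45 ± 0.14 SE, adjusted p by limma = 0.029), and did not pass without TAF1 array A (0.46, adjusted p by limma = 0.0926) or B (0.29, adjusted p by limma = 0.231). All 3 are shared promoters. UFD1, which helps extract ubiquitinated proteins, rose in RNA by 1.10, whereas TFC4 stood at 0.10 (adjusted p by limma = 0.643).

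The cytosolic ribosomal protein genes had few TAF1 calls beside a broad RNA loss; many are near-identical pairs, whose RNA can share a probe. RNA fell at 76 of 79 large subunit and 56 of 56 small subunit genes, with medians of -1.88 and -1.97. TAF1 was called lower at 4 of 75 and 2 of 54 of their promoter regions (5.33% and 3.7%) and higher at 1 and 2. Against Null it was lower at 4 of each and higher at 1 and 2. The arrays disagreed: over the regions of both lists together the medians were -0.06, -0.46, 0.18 and 0.08 on TAF1 arrays A to D, against -0.03, 0.04, 0.00 and 0.17 on Null arrays A to D. TAF1 was below 0 at 116 of these regions on array B and at 21 on array C, with 77 on A and 34 on D. Without array B the list medians, -0.09 in both, became 0.07 and 0.06.

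Single ribosomal protein promoters went both ways. RPS27A b, 1 of the regions before RPS27A, had 0.85, 0.92, 0.80 and 0.62 on TAF1 arrays A to D, against 0.06, -0.38, -0.02 and -0.10 on Null arrays (0.79 ± 0.10 SE, adjusted p by limma = 2.45e-05), though RPS27A RNA fell by 1.02. The TAF1 values were similar on the 4 arrays and none overlapped Null. RRP5-RPS10B, beside a ribosome assembly gene, had -0.36, -0.84, -0.08 and -0.15 on TAF1 arrays and 0.23, 0.17, -0.02 and 0.09 on Null arrays (-0.36 ± 0.10 SE, adjusted p by limma = 0.0102). Without TAF1 array B, RRP5-RPS10B had -0.19 (adjusted p by limma = 0.159).

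For genes that charge and deliver tRNA, the lower values lay mainly on arrays A and B. TAF1 was lower at 5 of 18 regions of aminoacyl-tRNA synthetase genes (27.8%) and at 6 of 38 of translation initiation and elongation factors (15.8%), and higher at 0 and 2. Against Null it was lower at 3 and 5. The list medians were -0.15, -0.40, -0.03 and -0.03 for the synthetases and -0.20, -0.36, 0.01 and -0.02 for the factors on TAF1 arrays A to D, near 0 on C and D. The RNA of these lists fell at 20 of 21 and 33 of 38 genes. AIR1-THS1, beside a nuclear RNA decay gene and the threonyl-tRNA synthetase gene, had -0.56, -1.64, -0.62 and -0.48 on TAF1 arrays A to D and 0.15, -0.05, -0.08 and 0.25 on Null arrays (-0.83 ± 0.13 SE, adjusted p by limma = 9.41e-05). GCD11, the gamma subunit of initiation factor eIF2, had -0.55, -0.99, -0.32 and -0.26 on TAF1 arrays and 0.54, 0.19, 0.03 and 0.27 on Null arrays (-0.53 ± 0.13 SE, adjusted p by limma = 0.00557). All TAF1 values lay below the Null values in both regions, and array B was the lowest. Without array B, AIR1-THS1 had -0.54 (adjusted p by limma = 0.000817) and GCD11 had -0.37 (adjusted p by limma = 0.082).

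Nucleotide synthesis split evenly, with TAF1 higher at 6 and lower at 6 of 36 purine and pyrimidine promoter regions (16.7% each), and against Null higher at 2 and lower at 6. URA7-MRPL16, beside the CTP synthetase gene URA7, had -0.70, -0.96, 0.05 and -0.29 on TAF1 arrays A to D, against 0.16, 0.45, 0.29 and 0.47 on Null arrays (-0.48 ± 0.12 SE, adjusted p by limma = 0.00613). URA7 RNA fell by 3.69, among the 6 steepest losses of genes with a tested region. ADE16, of the last steps of purine synthesis, had 0.50, 0.75, 0.68 and 0.45 on TAF1 arrays and 0.20, -0.25, 0.15 and 0.05 on Null arrays (0.60 ± 0.12 SE, adjusted p by limma = 0.00109). Without TAF1 array A or B, URA7-MRPL16 missed the threshold (-0.40 and -0.31, adjusted p by limma = 0.0679 and 0.0953).

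Proteasome genes, which encode the particle that degrades ubiquitinated proteins, had the highest shares of TAF1 rises against 0 of the 33 lists. TAF1 was higher at 10 of 14 regions of the 20S core (71.4%) and 18 of 27 of a list of the 19S regulatory particle with its assembly factors and regulators, BLM10 and RPN4 among them (66.7%), and lower at 0 of both. Against Null it was higher at 5 (35.7%) and 13 (48.1%). Over the 41 regions the medians were 0.55, 0.41, 0.39 and 0.35 on TAF1 arrays A to D, against 0.08, 0.01, -0.04 and 0.09 on Null arrays A to D. RNA rose at 11 of 14 and 15 of 29 genes, by a median of 0.72 and 0.59, less than in the general stress list below.

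PRE9, an alpha subunit of the core, had 1.07, 0.78, 0.81 and 0.69 on TAF1 arrays A to D, against -0.48, 0.08, 0.07 and -0.03 on Null arrays (0.84 ± 0.10 SE, adjusted p by limma = 1.58e-05). RPN2, a subunit of the regulatory particle, had 1.14, 0.66, 0.76 and 0.52 on TAF1 arrays and 0.32, 0.26, 0.02 and -0.09 on Null arrays (0.77 ± 0.12 SE, adjusted p by limma = 0.000124). BLM10, an alternative activator of the core, had 0.73, 1.12, 0.60 and 0.45 on TAF1 arrays and 0.00, -0.48, -0.02 and -0.04 on Null arrays (0.72 ± 0.09 SE, adjusted p by limma = 2.45e-05). No TAF1 value overlapped a Null value at these 3. PRE8, another core subunit, was flat, with -0.01, -0.02, -0.07 and 0.12 on TAF1 arrays and 0.07, 0.03, -0.09 and 0.02 on Null arrays, while its RNA rose by 0.84. RPN4, the activator of proteasome genes, stood at 0.03 ± 0.13 (SE; adjusted p by limma = 0.92).

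The ubiquitin list was higher at 16 of 37 regions (43.2%) and lower at 0, and against Null higher at 9 (24.3%). UBI4, the stress-induced polyubiquitin gene, had 1.35, 1.13, 0.61 and 0.73 on TAF1 arrays A to D, against 0.24, -0.75, -0.27 and -0.00 on Null arrays (0.95 ± 0.15 SE, adjusted p by limma = 0.000124), and its RNA rose by 3.91. SHP1, a cofactor of the Cdc48 ATPase, had 1.63, 0.85, 0.85 and 0.61 on TAF1 arrays and 0.23, 0.61, 0.07 and 0.35 on Null arrays (0.98 ± 0.16 SE, adjusted p by limma = 0.000128). Against Null, SHP1 differed by 0.67 (adjusted p by limma = 0.0509).

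Among mitochondrial energy genes, TAF1 was higher at 10 of 22 regions of tricarboxylic acid cycle genes (45.5%) and at 21 of 45 of the respiratory chain and ATP synthase (46.7%), and lower at 0 and 2. Against Null it was higher at 4 (18.2%) and 10 (22.2%). KGD1, a subunit of 2-oxoglutarate dehydrogenase, had 1.09, 1.02, 0.75 and 0.52 on TAF1 arrays A to D and -0.16, 0.12, 0.12 and 0.14 on Null arrays (0.84 ± 0.09 SE, adjusted p by limma = 8.62e-06). KGD2-NUM1, beside the gene of another subunit of that enzyme, had 1.15, 0.82, 0.74 and 0.54 on TAF1 arrays and 0.07, -0.07, -0.05 and 0.02 on Null arrays (0.81 ± 0.11 SE, adjusted p by limma = 3.44e-05). INH1, the inhibitor of the mitochondrial ATPase, had 1.53, 0.75, 0.83 and 0.64 on TAF1 arrays and 0.40, 0.08, -0.23 and 0.01 on Null arrays (0.94 ± 0.11 SE, adjusted p by limma = 9.96e-06). The TAF1 arrays were all above the Null arrays at these 3 regions.

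The HAP complex, an activator of respiration genes, was divided. HAP2 had 1.13, 0.65, 0.97 and 0.61 on TAF1 arrays A to D, against -1.31, 0.12, 0.14 and -0.03 on Null arrays (0.84 ± 0.17 SE, adjusted p by limma = 0.00128). KTI12-HAP4 b, 1 of the regions between KTI12 and HAP4, had -0.62, -0.63, -0.27 and -0.13 on TAF1 arrays and 0.58, 0.25, -0.06 and 0.15 on Null arrays (-0.41 ± 0.10 SE, adjusted p by limma = 0.0036). Without TAF1 array A it had -0.34 (adjusted p by limma = 0.0508). Mitochondrial ribosomal protein genes were higher at 14 of 61 regions (23%) and lower at 2, but against Null at 4 (6.56%), under the share of all promoter regions. Genes of mitochondrial import and folding were higher at 6 of 34 (17.6%) and lower at 1, and against Null at 5 (14.7%) and 1.

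Chaperone promoters were called for TAF1 at about the shares of all promoter regions, while the RNA of most of these genes rose. RNA rose at 18 of 29 genes of the Hsp70, Hsp110, Hsp90 and small heat shock protein list. TAF1 was higher at 4 of 27 regions (14.8%) and lower at 2 (7.41%), beside 17.1% and 8.04% of all promoter regions. Against Null it was higher at 3 (11.1%, beside 10.3%) and lower at 1. HSP26, a small heat shock protein, had the largest RNA rise among genes of regions with 1 promoter, 6.76. Its TAF1 values were 0.25, 0.19, -0.17 and -0.03 on arrays A to D, against 0.01, -0.32, -0.27 and -0.16 on Null arrays (0.06 ± 0.07 SE, adjusted p by limma = 0.61). SSA4, the stress-induced Hsp70, rose in RNA by 6.47 and had 1.35, 0.49, 0.32 and 0.29 on TAF1 arrays, against 1.08, 0.04 and 0.02 on Null arrays B to D, with no value on A. Array A was high in TAF1 and array B in Null, and the groups overlapped. The estimate for SSA4 was 0.61 ± 0.16 (SE; adjusted p by limma = 0.00905) against 0, 0.23 against Null (adjusted p by limma = 0.564), and 0.35 without TAF1 array A (adjusted p by limma = 0.157).

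STI1, the adaptor of Hsp70 and Hsp90, had 0.87, 0.65, 0.49 and 0.43 on TAF1 arrays A to D and 0.04, -0.49, -0.05 and 0.18 on Null arrays (0.61 ± 0.11 SE, adjusted p by limma = 0.000583). SSZ1, an Hsp70 homologue bound to ribosomes, went the other way, with -0.70, -0.64, -0.21 and -0.30 on TAF1 arrays and -0.11, 0.35, -0.01 and 0.04 on Null arrays (-0.46 ± 0.09 SE, adjusted p by limma = 0.000916). The RNA of STI1 rose by 1.85 and that of SSZ1 fell by 1.62. In the list of the chaperonin CCT and prefoldin, which fold actin and tubulin, TAF1 was higher at 1 and lower at 1 of 14 regions (7.14% each), and against Null at 1 and 0.

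In the list of the general environmental stress response, RNA rose at 48 of 51 genes by a median of 2.47, and TAF1 was higher at 17 of 50 regions (34%) and lower at 2 (4%), with a median of 0.20, and against Null higher at 18 (36%) and lower at 0. ALD3 had 1.11, 1.29, 0.96 and 0.66 on TAF1 arrays A to D, against 0.59, 0.52, 0.07 and 0.03 on Null arrays, and RNA rose by 4.14. GPH1, glycogen phosphorylase, rose in RNA by 5.43 and had TAF1 values of 0.10, 0.12, 0.01 and -0.08, against -0.30, -0.41, -0.13 and -0.10 on Null arrays (0.04 ± 0.09 SE, adjusted p by limma = 0.802). TPS2, of trehalose synthesis, averaged 1.08 through a single TAF1 value of 3.43 on array B, with 0.08, 0.60 and 0.19 on A, C and D and 0.37, 2.48, -0.00 and -0.38 on Null arrays, and did not pass (adjusted p by limma = 0.0667). It passed without TAF1 array D (1.39, adjusted p by limma = 0.0449) or Null array B (1.08, adjusted p by limma = 0.0294).

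Defence against peroxide was called higher at 9 of 32 regions (28.1%) and lower at 1, and against Null at 7 (21.9%) and 0. TRX2, a thioredoxin, had 1.31, 1.22, 0.88 and 0.59 on TAF1 arrays A to D and 0.37, 0.11, 0.08 and 0.73 on Null arrays (1.00 ± 0.13 SE, adjusted p by limma = 2.45e-05). GPX1, a glutathione peroxidase, had 1.29, 1.06, 0.73 and 0.57 on TAF1 arrays and 0.33, -0.08, -0.07 and -0.11 on Null arrays (0.91 ± 0.12 SE, adjusted p by limma = 2.66e-05). The groups overlapped at TRX2 through Null array D and not at GPX1. TSA2, a stress-induced peroxiredoxin, rose in RNA by 2.59 and had -0.19, -0.59, -0.34 and -0.14 on TAF1 arrays, against -0.03, 0.56, 0.01 and 0.25 on Null arrays (-0.31 ± 0.13 SE, adjusted p by limma = 0.101).

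Folding in the endoplasmic reticulum was higher at 8 of 27 regions (29.6%) and lower at 2, and against Null at 4 (14.8%) and 1. ERO1, which drives disulfide formation there, had 1.24, 1.17, 0.86 and 0.43 on TAF1 arrays A to D, against -0.04, -0.17, -0.00 and -0.14 on Null arrays (0.92 ± 0.12 SE, adjusted p by limma = 2.29e-05). SEC62-NOG1, shared by a translocon gene and a ribosome assembly gene, had -1.29, -1.0004, -0.45 and -0.54 on TAF1 arrays and 1.21, 0.76, 0.21 and 0.27 on Null arrays (-0.82 ± 0.13 SE, adjusted p by limma = 0.000124). NOG1 RNA fell by 1.59 and SEC62 stood at -0.32 (adjusted p by limma = 0.248).

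The lists of the cell surface and of lipids lay near the share of all promoter regions. Cell wall genes were higher at 8 of 41 regions (19.5%) and lower at 0, and sterol and fatty acid synthesis at 6 of 34 (17.6%) and 1. Against Null they were higher at 5 each (12.2% and 14.7%). RHO1, the GTPase of the cell integrity pathway, had 0.97, 1.08, 0.52 and 0.52 on TAF1 arrays A to D, against 0.62, -0.50, -0.06 and 0.10 on Null arrays (0.77 ± 0.12 SE, adjusted p by limma = 0.000119). ARC18-ROM2, beside the gene of its activator Rom2, had 1.11, 0.63, 0.84 and 0.60 on TAF1 arrays and -0.20, -0.35, -0.04 and 0.06 on Null arrays (0.79 ± 0.12 SE, adjusted p by limma = 8.47e-05). SLT2, the MAP kinase of the pathway, had 0.67, 0.80, 0.62 and 0.33 on TAF1 arrays and 0.01, -0.13, -0.32 and 0.09 on Null arrays (0.60 ± 0.13 SE, adjusted p by limma = 0.00202). These 3 promoters of 1 pathway were chosen as the highest of their list.

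Autophagy genes were higher at 7 of 27 regions (25.9%) and lower at 0, and against Null higher at 3 (11.1%). ATG9, a membrane protein of autophagosome formation, had 1.08, 0.82, 0.42 and 0.26 on TAF1 arrays A to D and -0.03, -0.04, -0.32 and 0.27 on Null arrays (0.65 ± 0.15 SE, adjusted p by limma = 0.00296). Without TAF1 array A it had 0.49 (adjusted p by limma = 0.0542). Sulfate assimilation and methionine genes were higher at 6 of 22 (27.3%) and lower at 0, but against Null higher at 1 (4.55%), under the share of all promoter regions. Amino acid synthesis genes were higher at 8 of 60 (13.3%) and lower at 4 (6.67%), and against Null at 4 and 5. BAT2, the cytosolic branched-chain aminotransferase, had 0.69, 0.56, 0.36 and 0.48 on TAF1 arrays and -0.07, -0.05, -0.22 and 0.03 on Null arrays (0.52 ± 0.10 SE, adjusted p by limma = 0.000782).

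Glycolysis and fermentation genes were higher at 2 of 20 regions (10%) and lower at 0, and against Null at 1 and 0. Among hexose transporter genes, RNA rose at 10 of 19 genes and TAF1 was lower at 6 of 22 regions (27.3%) and higher at 0, with 21 of 22 estimates below 0, but against Null lower at 1 (4.55%). HXT10 had -0.64, -0.60, -0.22 and -0.35 on TAF1 arrays A to D, against -0.38, -0.46, -0.10 and -0.27 on Null arrays (-0.45 ± 0.10 SE, adjusted p by limma = 0.00258). HXT7 a, 1 of the regions before HXT7, had -0.16, -0.39, -0.44 and -0.40 on TAF1 arrays and -0.19, -0.17, -0.10 and -0.23 on Null arrays (-0.35 ± 0.11 SE, adjusted p by limma = 0.0239), with an RNA rise of 3.87. Null values were below 0 on every array at both, and neither difference from Null passed (differences of -0.15 and -0.17, adjusted p by limma = 0.502 and 0.48). HXT7 a also lost its call against 0 without TAF1 array B, C or D (adjusted p by limma 0.0783 to 0.0922). Hexose transporter genes include near-identical copies, whose DNA and RNA can bind the same probe.

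**Figure D3:**
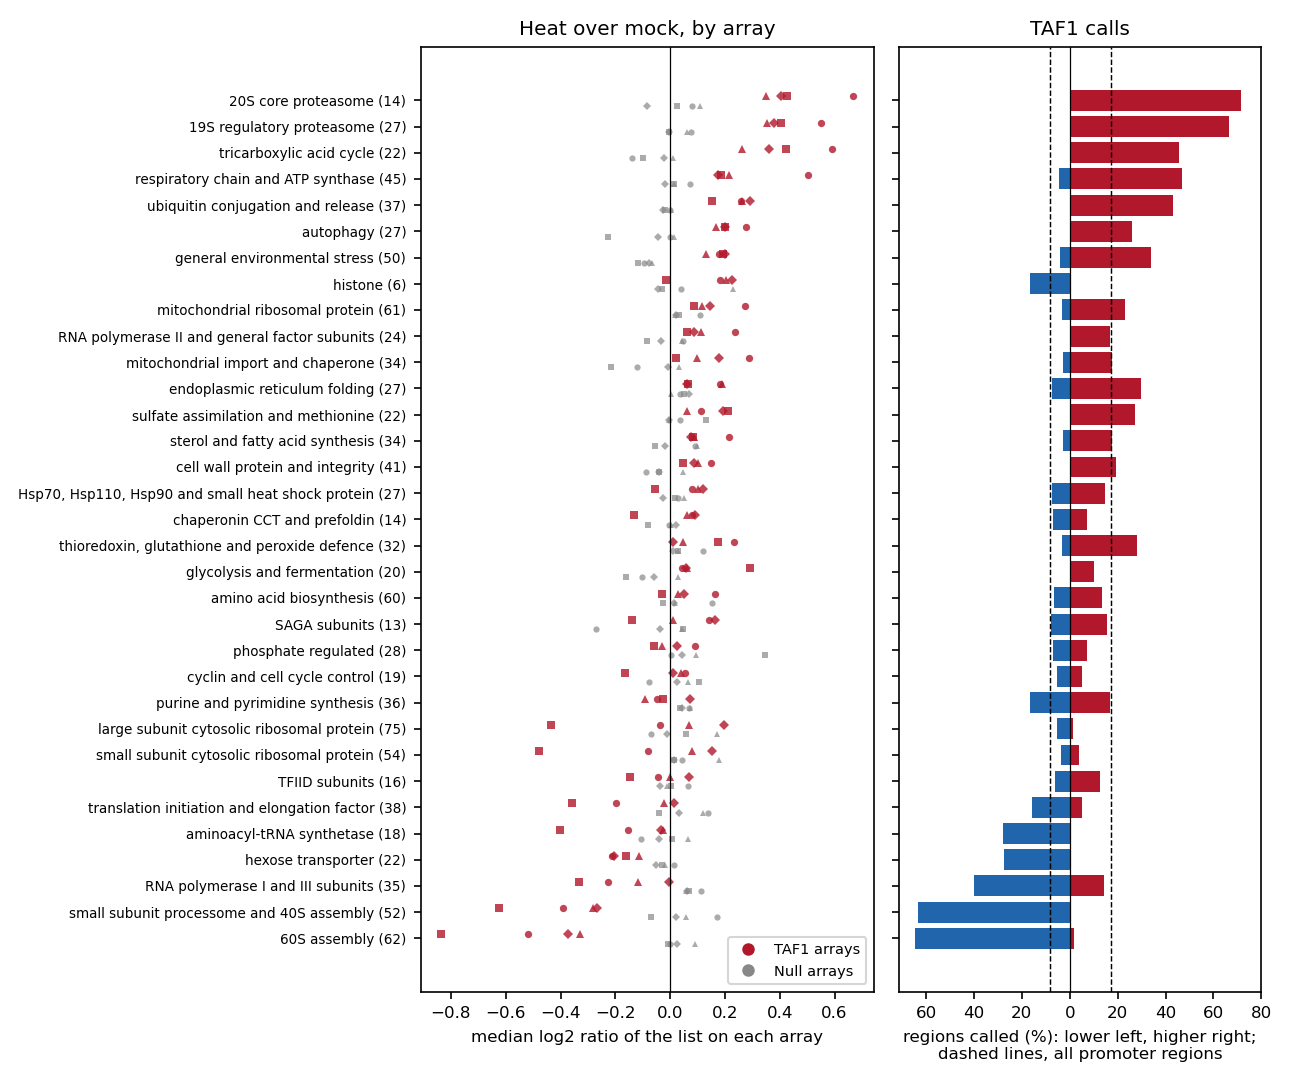
Gene lists in order of their median TAF1 estimate, with the number of promoter regions of each. The left panel gives the list's median log2 ratio of heat shocked over mock treated DNA on each TAF1 array (red) and Null array (grey), circles being array A, squares B, diamonds C and triangles D, and the right panel the percentage of regions called higher (right) or lower (left), with dashed lines at the 17.1% and 8.04% of all promoter regions. The proteasome lists lie at the top with 71.4% and 66.7% higher, the ribosome assembly lists at the bottom with 63.5% and 64.5% lower, and the cytosolic ribosomal protein lists spread across 0 between arrays B and C.

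Few histone and cell cycle promoters were called. Of 6 histone regions TAF1 was lower at 1, HHO1-NAN1, beside the linker histone gene and a small subunit processome gene, with -0.64, -0.54, -0.75 and -0.41 on TAF1 arrays A to D, against 0.29, -0.06, 0.05 and 0.31 on Null arrays (-0.58 ± 0.07 SE, adjusted p by limma = 1.8e-05). NAN1 RNA fell by 2.44 and HHO1 stood at -0.36 (adjusted p by limma = 0.111). Cyclin and cell cycle genes were higher at 1 and lower at 1 of 19 regions (5.26% each), and phosphate-regulated genes higher at 2 and lower at 2 of 28 (7.14% each). Against Null, lower calls numbered 1 in the histone, 1 in the cell cycle and 2 in the phosphate list, and higher calls 0. PHM6, a gene of the phosphate response, had -0.32, -0.31, -0.23 and -0.24 on TAF1 arrays, close to each other, and 0.30, 0.33, 0.15 and 0.13 on Null arrays (-0.28 ± 0.06 SE, adjusted p by limma = 0.00353).

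The genes of the transcription machinery itself were called against 0 at shares under, and mostly near, those of all promoter regions (17.1% higher and 8.04% lower). Of 24 regions of RNA polymerase II and general factor genes TAF1 was higher at 4 (16.7%) and lower at 0, of 16 TFIID regions higher at 2 (12.5%) and lower at 1 (6.25%), and of 13 SAGA regions higher at 2 (15.4%) and lower at 1 (7.69%). Against Null these lists were higher at 2, 1 and 3 (8.33%, 6.25% and 23.1%, beside 10.3% of all promoter regions) and lower at 0, 1 and 0. TAF5-KTR4, beside the gene of a core TFIID and SAGA subunit, had 0.68, 0.64, 0.62 and 0.53 on TAF1 arrays A to D, against 0.77, 0.40, -0.14 and 0.08 on Null arrays, with overlap (0.62 ± 0.15 SE, adjusted p by limma = 0.0045), and did not differ from Null past the threshold (0.34, adjusted p by limma = 0.294). TAF8-DAT1, beside another TFIID subunit gene, had -0.40, -0.82, -0.16 and -0.16 on TAF1 arrays and -0.28, -0.57, -0.13 and 0.07 on Null arrays, also with overlap (-0.38 ± 0.10 SE, adjusted p by limma = 0.00885). TAF8 rose in RNA by 2.63, and without TAF1 array B the region had -0.23 (adjusted p by limma = 0.13).

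YET3-BDF2, beside a homologue of the TFIID-associated Bdf1, had 0.58, 0.55, 0.38 and 0.33 on TAF1 arrays A to D, against -0.20, -0.30, -0.05 and 0.14 on Null arrays (0.46 ± 0.08 SE, adjusted p by limma = 0.000336). YSA1-SUS1, beside a SAGA subunit gene, had 0.57, 0.53, 0.49 and 0.58 on TAF1 arrays, all within 0.49 to 0.58, and 0.11, -0.12, -0.04 and 0.02 on Null arrays (0.54 ± 0.07 SE, adjusted p by limma = 1.58e-05). RPS17B-ADA2, beside a ribosomal protein gene and a SAGA subunit gene, had 1.30, 1.36, 0.57 and 0.39 on TAF1 arrays and -0.04, -0.38, -0.19 and -0.05 on Null arrays (0.90 ± 0.15 SE, adjusted p by limma = 0.000296). RPS17B RNA fell by 2.41 and ADA2 stood at -0.18 (adjusted p by limma = 0.42).

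At the promoters of the immunoprecipitated factors no TAF1 call was made against 0, and 1, at BDF1, was made against Null. TAF1-RTT102, the promoter of TAF1 itself, had -0.56, 0.46, 0.12 and 0.08 on TAF1 arrays A to D, with both signs, and 0.09, 0.34, -0.02 and 0.33 on Null arrays (0.03 ± 0.15 SE, adjusted p by limma = 0.921), and TAF1 RNA stood at -0.15 (adjusted p by limma = 0.506). The estimates were -0.14 ± 0.12 at SCC4-SPT15, the promoter of the TBP gene SPT15 (adjusted p by limma = 0.468), 0.31 ± 0.15 at IAT4-SPT3, the promoter of SPT3, a SAGA subunit that contacts TBP (adjusted p by limma = 0.153), and -0.04 ± 0.17 at MOT1-RPS9A, the promoter of MOT1, an ATPase that removes TBP from DNA (adjusted p by limma = 0.895). Without Null array B, IAT4-SPT3 passed at the same estimate (adjusted p by limma = 0.0271). SPT15 RNA fell by 0.91. BDF1 had -0.72, -1.21, 0.20 and -0.00 on TAF1 arrays and 0.11, 0.83, 0.16 and 0.89 on Null arrays (-0.44 ± 0.19 SE, adjusted p by limma = 0.103), and without TAF1 array C it passed (-0.66, adjusted p by limma = 0.0278). Its difference from Null was -0.93 (adjusted p by limma = 0.0246), a call that ended without TAF1 array A or B or Null array B or D (adjusted p by limma 0.0659 to 0.108). ACT1, the actin gene, had 1.4832, 0.41, 0.75 and 1.23 on TAF1 arrays and 0.25, 0.91, 0.38 and -0.33 on Null arrays (0.97 ± 0.43 SE, adjusted p by limma = 0.112), with a wide error.

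The relation of TAF1 to RNA was examined at the 2633 regions with 1 promoter and an RNA value, of which TAF1 was higher at 396 (15%) and lower at 213 (8.09%). At the 78 regions with an RNA change under -2 (log2), the median TAF1 change was -0.31, and 35 regions were lower and 0 higher. At the 178 regions with RNA from 1 to 2 it was 0.25, with 64 higher and 4 lower. At the 75 regions with RNA over 2 it was 0.19, with 26 higher and 3 lower, no further up than in the bin before. The Null medians in these 3 bins were 0.05, -0.04 and -0.12, opposite in sign to TAF1. The rho with RNA was 0.35, 0.41, 0.26 and 0.30 on TAF1 arrays A to D and -0.04, -0.08, -0.15 and -0.22 on Null arrays A to D, as descriptions across regions of the same arrays.

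**Figure D4:**
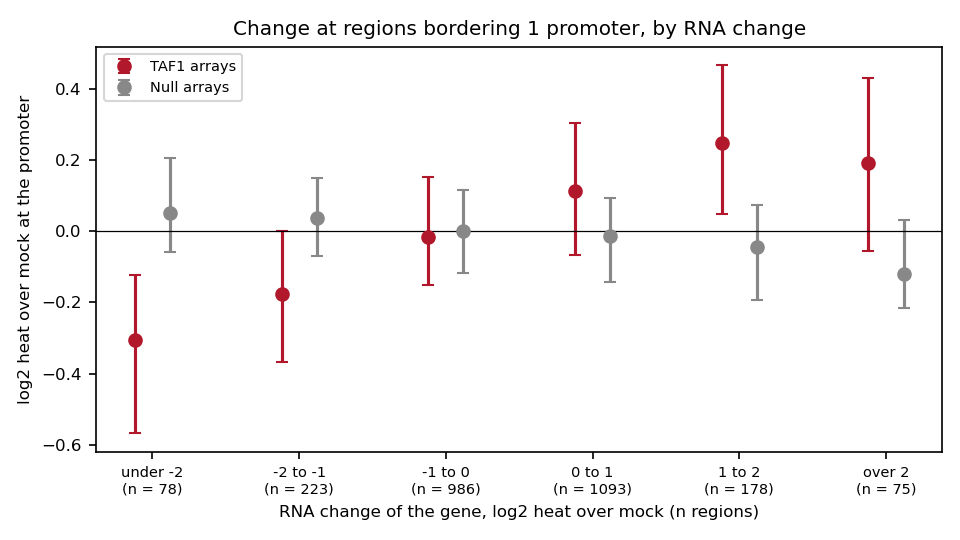
Median (point) and interquartile range (bar) of the log2 ratio of heat shocked over mock treated DNA for TAF1 (red) and Null (grey) at regions with 1 promoter, by the RNA change of the gene. TAF1 runs from -0.31 in the lowest RNA bin to 0.25 in the bin from 1 to 2 and 0.19 in the highest, while Null runs from 0.05 to -0.12.

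By calls, 583 of these regions belonged to genes whose RNA rose, and TAF1 was higher at 186 of them (31.9%) and lower at 15 (2.57%). Among 536 regions of genes whose RNA fell, TAF1 was lower at 131 (24.4%) and higher at 14 (2.61%). Among 1514 regions with no RNA call, TAF1 was higher at 196 (12.9%) and lower at 67 (4.43%). Over all 2633 regions the shares were 15% and 8.09%. Most regions of genes with an RNA call had no TAF1 call. Of the 20 regions with the highest RNA rises (3.91 to 6.76) TAF1 was higher at 9 and lower at 2, and of the 20 with the deepest RNA losses (-3.87 to -2.91) it was lower at 13 and higher at 0. Several of these 20 lie beside the same gene and share its RNA value.

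In tandem regions, the TAF1 change went with the RNA of the gene whose promoter faces the region (rho 0.38 over 1224 regions with Crick-strand genes and 0.42 over 1173 with Watson-strand genes) and not the gene that ends there (rho -0.04 over 1125 and -0.05 over 1223). The placing of regions to the right of their named gene had itself been settled on such a relation in earlier work on these data, so this is a description of the placing.

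**Figure D5:**
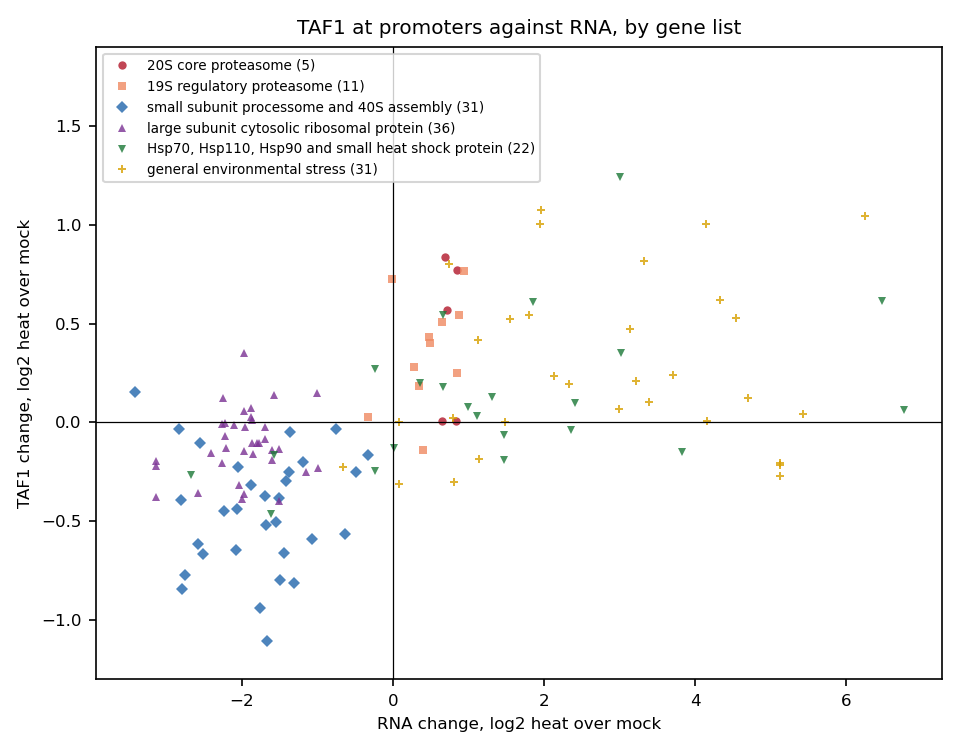
TAF1 change (vertical) against RNA change (horizontal), both log2 heat shocked over mock treated, at regions with 1 promoter in 6 gene lists, with the number of regions of each. Most proteasome regions lie above 0 in TAF1 at small RNA rises, most ribosomal protein regions lie closer to 0 than the processome regions at similar RNA losses, and HSP26 lies at 0.06 in TAF1 with an RNA rise of 6.76.

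Among the genes with the deepest RNA losses, DBP2, an RNA helicase, had an RNA change of -3.87 and values of -0.78, -0.96, -0.43 and -0.33 on TAF1 arrays A to D, against 0.39, 0.38, -0.01 and 0.06 on Null arrays (-0.62 ± 0.11 SE, adjusted p by limma = 0.000348). YHB1 had an even lower RNA change, -4.38. TAF1 was nonetheless called higher at PHO81-YHB1 b, 1 of the regions it shares with PHO81 (0.70 ± 0.14 SE, adjusted p by limma = 0.000974). TAF1 and Null values overlapped there, and the difference from Null did not pass (0.28, adjusted p by limma = 0.364). PHO81-YHB1 a had 0.42 (adjusted p by limma = 0.0515). RMT2-PKH3, beside a methyltransferase gene whose RNA fell by 3.85, had -0.27, 0.19, 0.04 and -0.19 on TAF1 arrays, with both signs, and 0.31, -0.12, 0.03 and 0.00 on Null arrays (-0.06 ± 0.08 SE, adjusted p by limma = 0.666). GTF1-NOP7, beside the large subunit assembly gene NOP7 whose RNA fell by 3.78, had 0.18, -0.34, -0.22 and -0.22 on TAF1 arrays and 0.90, 0.74, 0.05 and 0.34 on Null arrays. It did not pass against 0 (-0.15 ± 0.10 SE, adjusted p by limma = 0.317) but differed from Null by -0.66 (adjusted p by limma = 0.00433), and the Null estimate itself was 0.51.

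The regions called in the Null strain were the promoters of SCS22 and YPL247C. SCS22 had 0.70, 0.31, 0.27 and 0.38 on TAF1 arrays A to D and 0.91, 0.87, 1.65 and 0.12 on Null arrays. YPL247C had 0.42, 0.72, 0.31 and 0.37 on TAF1 arrays and -0.67, -1.03, -0.87 and -0.09 on Null arrays. TAF1 was called higher at both, at 0.42 ± 0.14 (SE; adjusted p by limma = 0.0431) and 0.46 ± 0.12 (SE; adjusted p by limma = 0.00981), and against Null only YPL247C differed, by 1.12 (adjusted p by limma = 0.000469). Leaving out any TAF1 array ended the call at SCS22 (adjusted p by limma 0.064 to 0.253), and leaving out array B the call at YPL247C (adjusted p by limma = 0.0843).

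At the edge of the threshold the estimates inside and outside it were alike. The 5 regions just inside (VPS13, AMF1 b, APL5, ELG1 and REB1, adjusted p by limma 0.0494 to 0.0498) had TAF1 estimates from -0.26 to 0.56. The 5 just outside (YPL062W, FLO10 b, GOT1, FAT1 and EMT1 downstream, adjusted p by limma 0.0501 to 0.0504) had estimates from -0.42 to 0.32.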

How the data were processed

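Each array was scanned with a GenePix 4000A scanner and read with GenePix Pro 4.0, per the labels. The deposited values are log2 ratios between an array's 2 channels, as the authors gave them, and were not centred. For background correction, normalisation, spot filters and the numerator channel, the procedure is not stated in the labels.

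Each array's log2 ratios were turned by its labelled heat channel, under the reading given in the report, and centred on the array's median. The 4 input arrays have no heat channel and were turned by the channel of the TAF1 strain. One linear model was fitted in limma 3.58.1 (R 4.3.3) to the 28 intergenic arrays, with 1 coefficient for each of the 7 groups and 1 channel effect for every region, common to the arrays. The coefficient is a heat change except in the input group, which compares input DNA of the TAF1 and Spt3 strains. A region needed values on at least 3 arrays of every group. TAF1 minus Null was a contrast in the same model. Tests were two-sided, with Benjamini-Hochberg adjustment over all 6392 regions at 0.05, and the printed adjusted p-values come from limma. RNA was fitted by a model of the same kind on 4 arrays, but with ratios read as channel 2 over channel 1, and 6772 of 7056 probes were tested. Deviations of same-lettered TAF1 and Null arrays correlated at -0.05, 0.04, 0.25 and 0.01 for A to D, so the letters were not taken to pair the arrays. On simulated data with each array's own spread the model recovered the changes put in, but its share of false calls was above the threshold, as the report states.

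Gene neighbours and strands came from a RefSeq table of the R64 assembly, and 5696 of 7047 regions carried a gene name. The members and the gene lists were chosen with earlier results of these data known. Candidates for naming were the 12 highest and 12 lowest estimates described in the report, the 3 highest and 3 lowest members of each list among those with values on all 4 TAF1 arrays, regions called in Null, promoters of the immunoprecipitated factors, of ACT1 and of the 6 genes with the largest RNA change each way, and 5 regions on each side of the threshold. The text describes the full first set and only some of the others, picked with their values known; the counts cover all of them. The number of arrays limits the precision.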

Additional observations from a re-analysis of the deposited data

Results flagged for a closer look

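At the 85 regions described individually by array, 1 array stood apart from the other 3 of its group in 16 groups of 4 arrays, by Dixon's criterion for the gap to the nearest array over the group's range, which chance meets in about 1 of 20 groups. Of the 16, 9 were on Null array A and 4 on TAF1 array B.

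Among the TAF1 arrays, array B stood apart at LDS1-PSK1 with 1.52 (others 0.81 to 0.89), at RFU1 with -1.74 (others -0.83 to -0.72), at AIR1-THS1 with -1.64 (others -0.62 to -0.48) and at TPS2 with 3.43 (others 0.08 to 0.60).

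Null array A stood apart most widely at PUS1-NIP7, with 3.71 (others -0.02 to 0.28), KRR1, with -1.90 (others -0.15 to 0.07), and HAP2, with -1.31 (others -0.03 to 0.14). It stood at -0.88 at UTP18 (others 0.04 to 0.15), 0.53 at NSA2-LCP5 (others 0.16 to 0.21), 0.34 at LDS1-PSK1 (others -0.06 to 0.01) and 0.33 at GPX1 (others -0.11 to -0.07). At KGD1 it stood at -0.16 (others 0.12 to 0.14) and at GCD10-NOP2 at 0.081 (others 0.17 to 0.19), gaps that are small in themselves. Null array B stood apart at BLS1 with 0.93 (others -0.13 to -0.03) and at BLM10 with -0.48 (others -0.04 to 0.005), and Null array D at TFC4-UFD1 with 0.11 (others 0.05 to 0.06).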

How the results depend on the processing

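Of the 70 named regions called against 0 that were followed through the alternatives, none changed sign under any of them, and 10, 9, 3 and 3 lost the call without TAF1 array A, B, C or D. The numbers of called regions depended on the arrays and on the scaling, and the cause was not tested. With the TAF1 and Null arrays fitted alone, 0 regions were called higher and 0 lower, for TAF1 and for TAF1 minus Null (1558 and 1072 at an unadjusted p under 0.05 by limma). With the replicate block, which pairs arrays by letter, TAF1 minus Null also gave 0 higher and 0 lower (998 at an unadjusted p under 0.05, smallest adjusted p by limma 0.297). Without centring, TAF1 gave 0 and 0, with 204 at an unadjusted p under 0.05, and TAF1 minus Null gave 21 higher and 0 lower, where the median of all regions moved to 0.78. The differences at RRP5-RPS10B, KTI12-HAP4 b, SSZ1, HHO1-NAN1, PHM6 and GTF1-NOP7 then turned positive, at 0.29, 0.12, 0.24, 0.030, 0.26 and 0.10. With arrays scaled to equal spread, 292 were lower for TAF1, and 288 were higher and 138 lower for TAF1 minus Null. At an adjusted p under 0.01, 664 were called in either direction for TAF1 and 243 for TAF1 minus Null, against 1336 and 734. Leaving out 1 array gave 384 to 951 higher and 241 to 691 lower for TAF1, and 213 to 539 higher and 126 to 304 lower for TAF1 minus Null. In alternatives added after seeing the data, TAF1 minus Null gave 205 higher and 106 lower without Null arrays A and B, and 904 and 430 without Null arrays C and D. Dropping the channel effect, array weights and other filters on missing values kept all 4 counts within 1.5 times. The planned comparison of promoter motifs was not run, since no promoter sequences were used here.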
